A study of Homo sapiens with 12 samples.

Results

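The translation initiation and elongation factors are the proteins that assemble ribosomes on mRNAs and then move them along the coding sequence, and their mRNAs were followed here with 1210 probe sets of 56 genes. Members were chosen by name: a probe set was taken when its only gene symbol, updated to the current one, began with EIF1 to EIF6 or with EEF1 or EEF2. The EIF2AK kinases, EEF2K, EEF2KMT, the EEF1AKMT genes, a Y-linked copy and pseudogenes met the prefix but were left out, which removed 240 probe sets of 13 genes. The table holds 1411399 probe sets in all, of which 357604 carry exactly 1 gene symbol and belong to 19488 genes. After a filter on dim probe sets (mean over the 12 arrays above 2.04 on the log2 scale), 1069 member probe sets were kept, and the 54 genes that retained 3 or more entered the test, which covered 16883 genes. The other members, EIF1AX and EIF3C, had 1 kept probe set each and were not tested; probe sets that list them together with EIF1AP1 or EIF3CL were not used.

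RNA from the cytoplasm of U2OS, an osteosarcoma line of human origin, was measured on 12 exon arrays, 3 in each of 4 groups. All cells carried the inactive capping enzyme mutant K294A as a stable transgene under doxycycline control; the labels do not say whether the line is 1 clone. The groups were cells induced with doxycycline (1 ug/ml for 24 h) whose RNA was treated with Xrn1, induced cells whose RNA was left untreated, uninduced cells whose RNA was treated with Xrn1, and uninduced cells whose RNA was left untreated. Xrn1 is an exonuclease that digests RNA from a 5′ monophosphate and spares RNA with a cap, and it was applied in vitro after a ribosomal RNA removal step; the study asked which RNAs are capped again in the cytoplasm. The labels call the samples biological replicates without naming separate cultures, so each p measures the spread between these samples, which may be technical.

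Initiation begins when eIF2, charged with GTP and initiator tRNA, joins eIF1, eIF1A, eIF3 and eIF5 on the small ribosomal subunit, and eIF2B recharges eIF2 for the next round. The cap-binding complex of eIF4E, the scaffold eIF4G and the helicase eIF4A brings this assembly to the mRNA, after which eIF5B joins the large subunit. eEF1A then delivers aminoacyl-tRNAs, its exchange factors reload it, and eEF2 translocates the ribosome. Several of these factors are themselves encoded by mRNAs with a terminal oligopyrimidine tract (TOP), a C at the cap followed by pyrimidines, through which the mTOR pathway controls their translation.

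Because the study concerns the 5′ end, the annotated transcript starts of members with large changes are shown first. The promoter table of RefSeq (GRCh38.p14) held 47 of the 56 members; EEF1A2, EEF1D, EIF2S2, EIF3A, EIF3E, EIF3G, EIF3H, EIF3L and EIF4EBP1 are named only. Each window below runs 5′ to 3′ on the transcript strand for 30 bases, of which 15 lie before the annotated start and 15 follow from it. Capitals mark a run of C and T that begins with C and is at least 5 bases long. In the first 6 windows the run covers the start, and in the others it does not, or there is no such run.
EEF1A1, chr6:73521018-73521047, minus strand: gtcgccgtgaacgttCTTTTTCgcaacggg
EEF2, chr19:3985449-3985478, minus strand: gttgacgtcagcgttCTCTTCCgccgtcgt
EIF4B, chr12:53006441-53006470, plus strand: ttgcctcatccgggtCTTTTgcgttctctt
EIF3F, chr11:7987322-7987351, plus strand: ttccgcttccgCCTCCTTCTTTCTCgacaa
EIF3M, chr11:32583816-32583845, plus strand: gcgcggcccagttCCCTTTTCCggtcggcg
EIF2S3, chrX:24054941-24054970, plus strand: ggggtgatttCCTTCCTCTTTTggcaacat
EIF2S1, chr14:67360313-67360342, plus strand: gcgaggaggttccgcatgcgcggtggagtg
EIF5, chr14:103334222-103334251, plus strand: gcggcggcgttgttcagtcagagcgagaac
EIF4E, chr4:98929119-98929148, minus strand: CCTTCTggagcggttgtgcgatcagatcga
A run at the start was found in 11 of 47 members (23.4%) and in 1429 of all 35116 promoters (4.07%), on the transcript strand only. Such a match describes letters and not a measured cap site.

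The arrays differed in their median gene and in their bright end. Array medians over all probe sets lay between 2.09 and 2.25, but the median gene value lay between 3.08 (induced untreated replicate 1) and 3.82 (uninduced untreated replicate 3). Genes above a level of 6 numbered 110 to 298 on the Xrn1 arrays and 327 to 1114 on the untreated arrays. Members above 6 numbered 2 to 6 and 11 to 22 on the same arrays. Within a group, the correlation of gene values between arrays was lowest at 0.711, in uninduced Xrn1, and highest at 0.967, in uninduced untreated. Of 6 osteosarcoma line markers, SPARC stood at 6.19 to 9.22, COL1A1 at 7.92 to 9.16 and VIM at 5.60 to 7.80 over all arrays. RUNX2 stood at 2.68 to 4.05, COL1A2 at 2.57 to 3.92 and ALPL at 1.83 to 3.29, values that markers of other cell types also had. Of 14 markers of other cell types, 12 were measured, between 1.65 and 5.00, and none of these stood at 0. Their summed level was 40.5 to 41.7 in induced Xrn1, 31.8 to 39.8 in induced untreated, 33.8 to 40.0 in uninduced Xrn1 and 35.4 to 40.6 in uninduced untreated arrays. With Xrn1, 6 of these 12 rose in induced cells and 0 passed in uninduced cells by limma; the part of these markers and of the bright end in the results below was not tested. All levels are log2 RMA values averaged over a gene's kept probe sets, levels of different genes are not compared, and every simple difference has a standard error of 0.34, since limma gave all genes the common SD of 0.418. In bulk RNA, fewer cells holding an mRNA and less of it per cell cannot be told apart, and a lower value is lower relative to the other RNAs on the array.

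Under the deposited scaling and the common SD, most translation factor mRNAs passed as lower after Xrn1, but only narrowly most in induced cells. In induced cells 28 of 54 members (51.9%) fell and 1 rose, where 17.8% of all 16883 genes fell and 21.6% rose (limma, Benjamini-Hochberg adjusted p under 0.05). In uninduced cells 40 of 54 (74.1%) fell and 1 rose, where 31.8% of all genes fell and 7.24% rose. The median change of the members was -0.81 in induced cells, against 0.10 for all genes, and -1.58 in uninduced cells, against -0.27 for all genes. The share that fell was larger among bright genes: of the 3963 genes with a mean above 4, 35.3% were lower and 18.7% higher in induced cells, with 22 of 36 such members lower. In uninduced cells 59.3% of these genes were lower and 3.94% higher, with 32 of 36 members lower. The values of Xrn1 and untreated arrays did not overlap, with Xrn1 lower, for 30 members in induced cells (22.6% of all genes) and for 37 in uninduced cells (33.6% of all genes). In all, 26 members fell in both comparisons (14.4% of all genes did), and no member rose in one and fell in the other. Across the 54 members, which are not independent replicates, the 2 changes had a Pearson correlation of 0.758 and a Spearman correlation of 0.721.

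**Figure D1:**
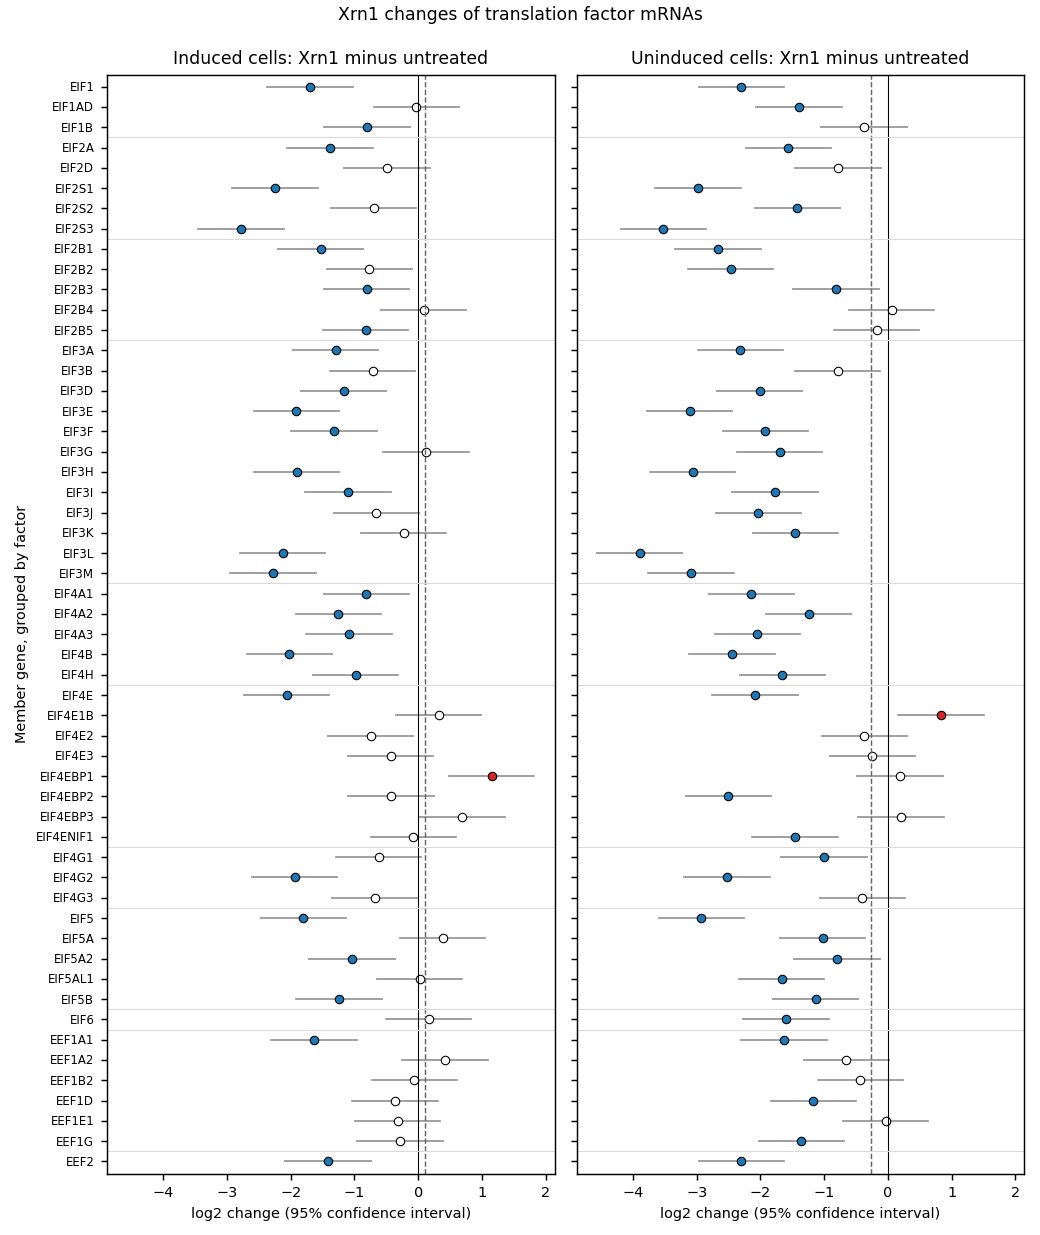
Xrn1 changes of the 54 tested members (log2, Xrn1 minus untreated) in induced cells on the left and uninduced cells on the right. Points are estimates, bars are 95% confidence intervals, filled points passed (blue lower, red higher), and dashed lines mark the median of all genes, 0.10 and -0.27. The lowest points are EIF2S3 on the left (-2.78) and EIF3L on the right (-3.90).

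The size of these falls depended on how the arrays were scaled. Cyclic loess, which forces the arrays to one intensity curve, left 24 members lower and 5 higher in induced cells, where 21.9% of all genes were lower and 23.4% higher. It left 24 lower and 4 higher in uninduced cells, where 21.9% were lower and 21.9% higher. In induced cells the lower calls lost were those of EEF1A1, EEF2, EIF1, EIF3F, EIF3I, EIF4A1, EIF4A3 and EIF4H, while EIF2S2, EIF3J, EIF4E2 and EIF4G3 passed as lower after loess and not before. In uninduced cells they were those of EEF1A1, EEF1D, EEF1G, EEF2, EIF1, EIF2B3, EIF3F, EIF3G, EIF3I, EIF3K, EIF4A2, EIF4G1, EIF4H, EIF5A, EIF5A2 and EIF6. The member median became -0.55 in induced cells and -0.49 in uninduced cells, against 0.01 and 0.07 for all genes. With each array centred on its median gene, 35 members were lower and 1 higher in induced cells (22.9% and 21.7% of all genes), with a median of -0.92. The same centring gave 36 lower and 1 higher in uninduced cells (25.4% and 23.3%), with a median of -1.22. Testing each gene on its own spread, without the pooled SD, left 18 lower and 0 higher in induced cells (6.14% and 2.7% of all genes). It left 35 lower and 1 higher in uninduced cells (25.4% and 6.72%). The members lower in both comparisons under the deposited scaling, loess, centring and the own spread were 13: EIF2B1, EIF2S1, EIF2S3, EIF3A, EIF3D, EIF3E, EIF3H, EIF3L, EIF3M, EIF4B, EIF4E, EIF4G2 and EIF5. The share of all genes lower in all of these was not counted. In induced cells the count of lower members also depended on the second arrays. Without induced untreated replicate 2 it was 18, and without Xrn1 replicate 2 it was 19. Without both CM2 arrays, which are those arrays, it was 11.

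**Figure D2:**
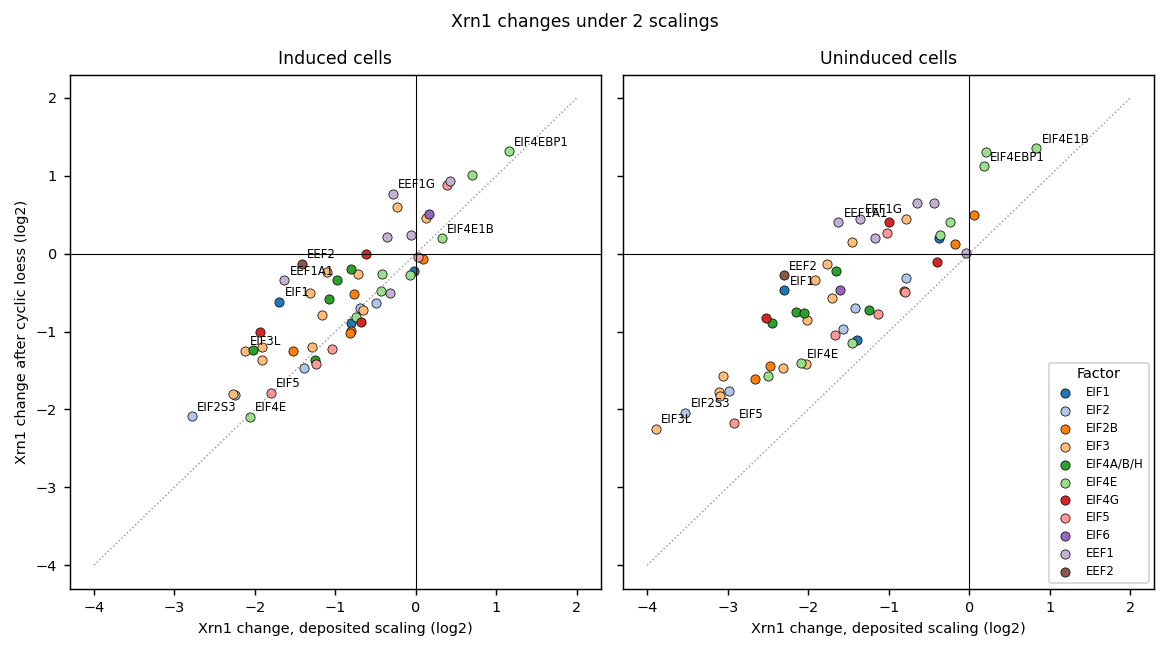
Xrn1 change of each member after cyclic loess (vertical axis, log2) against the change under the deposited scaling (horizontal axis, log2), induced cells on the left and uninduced cells on the right, coloured by factor. The dotted line marks equal changes: most points lie above it, and EEF1G crosses 0 in both panels (0.77 against -0.29 in induced cells, 0.45 against -1.36 in uninduced cells).

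Among the factors that select the start codon, EIF1, which guards start codon fidelity, fell in both comparisons under the deposited scaling. It stood at 6.03, 5.32 and 6.31 in induced Xrn1 arrays and 7.58, 7.61 and 7.56 in induced untreated arrays, a change of -1.70 (limma adjusted p = 1.50e-05). Uninduced cells gave 5.79, 5.66 and 6.02 with Xrn1 and 7.95, 8.44 and 7.98 without it, a change of -2.30 (adjusted p = 3.72e-10). The groups did not overlap in either comparison, but after cyclic loess the changes were -0.62 and -0.47 and neither passed. EIF1AD, which shares a domain with eIF1A, fell in uninduced cells, with 3.30, 2.06 and 2.57 after Xrn1 and 4.17, 3.96 and 3.99 without it (-1.40, adjusted p = 2.41e-04). In induced cells its Xrn1 arrays at 3.30, 3.07 and 3.18 lay within the untreated values of 2.85, 2.99 and 3.79 (-0.03, adjusted p = 0.962). EIF1B, a close relative of EIF1, passed narrowly in induced cells, at 3.78, 3.20 and 3.34 with Xrn1 and 4.21, 4.42 and 4.11 without it (-0.80, adjusted p = 0.0477), and did not pass in uninduced cells (-0.38). The induced call was lost when either second induced array was left out (-0.72 without the untreated one and -0.68 without the Xrn1 one).

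Of the eIF2 trimer, which carries initiator tRNA, 2 of 3 subunits fell in induced cells and 3 of 3 in uninduced cells. Its gamma subunit EIF2S3, which binds GTP and the tRNA, stood at 4.46, 3.79 and 4.37 in induced Xrn1 arrays and 6.45, 7.38 and 7.12 in induced untreated arrays. This 6.88-fold fall (-2.78, 95% confidence interval -3.45 to -2.11, adjusted p = 2.39e-13) was the largest of any member in induced cells. In uninduced cells EIF2S3 stood at 4.05, 3.49 and 4.48 with Xrn1 and 7.32, 7.76 and 7.49 without it, an 11.5-fold fall (-3.52, -4.19 to -2.85, adjusted p = 2.42e-22). Every Xrn1 array lay more than 1 log2 unit below every untreated array of its group. The alpha subunit EIF2S1, the phosphorylation site of the stress kinases, had 4.16, 3.57 and 3.62 in induced Xrn1 arrays and 5.43, 6.47 and 6.18 in induced untreated arrays (-2.25, adjusted p = 4.67e-09). Its values in uninduced cells were 4.06, 3.15 and 3.97 with Xrn1 and 6.89, 6.70 and 6.53 without it (-2.98, adjusted p = 2.26e-16). Again no array of one group reached the other. The beta subunit EIF2S2 changed by -0.70 in induced cells (adjusted p = 0.0899) and fell in uninduced cells (-1.42, adjusted p = 1.78e-04).

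The other members of this class can bring initiator tRNA to ribosomes without eIF2. EIF2A fell in both comparisons (-1.38 and -1.56), but its untreated arrays were uneven: 2.95, 3.41 and 3.02 with Xrn1 in uninduced cells lay below an untreated group of 5.33, 3.67 and 5.08, whose second array was lowest. In induced cells it had 3.50, 2.80 and 3.09 with Xrn1 and 3.77, 4.93 and 4.84 without it, and the call was lost without the CM2 arrays (-1.01). EIF2D did not pass in either comparison (-0.49 and -0.78), and its uninduced Xrn1 arrays at 2.99, 3.48 and 3.22 overlapped the untreated ones at 4.65, 3.09 and 4.30.

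The subunits of eIF2B, the exchange factor that recharges eIF2, did not all pass: 3 of 5 fell in each comparison. EIF2B1, the alpha subunit that senses phosphorylated eIF2, stood at 4.17, 3.54 and 4.10 in induced Xrn1 arrays and 5.03, 5.79 and 5.59 in induced untreated arrays (-1.53, adjusted p = 1.14e-04; without the CM2 arrays it was -1.17 and no longer passed). In uninduced cells it stood at 3.31, 3.04 and 3.77 with Xrn1 and 5.92, 6.12 and 6.07 without it (-2.66, adjusted p = 2.69e-13). EIF2B2, the beta subunit, changed by -0.77 in induced cells, with 4.27, 3.92 and 4.31 after Xrn1 and 4.25, 5.32 and 5.23 without it, and did not pass (adjusted p = 0.0604). In uninduced cells its values of 3.42, 3.44 and 3.61 with Xrn1 lay well below 6.28, 5.78 and 5.82 without it (-2.47, adjusted p = 1.46e-11). EIF2B5, the catalytic subunit, passed narrowly in induced cells, with 3.18, 2.84 and 2.73 after Xrn1 and 3.63, 4.03 and 3.57 without it (-0.82, adjusted p = 0.0421), and did not pass in uninduced cells (-0.18). EIF2B3 passed just under the threshold in both (-0.81 and -0.82, adjusted p = 0.0458 and 0.0447). Without induced untreated replicate 2 neither EIF2B5 (-0.68) nor EIF2B3 (-0.50) passed in induced cells, and without uninduced untreated replicate 1 EIF2B3 (-0.58) no longer passed in uninduced cells. EIF2B4 showed the smallest difference of the class: 3.80, 3.51 and 3.66 with Xrn1 and 3.13, 3.88 and 3.70 without it in induced cells (0.09), and 3.34, 3.75 and 3.68 with Xrn1 and 3.79, 2.78 and 4.03 without it in uninduced cells (0.06). Its groups overlapped in both.

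eIF3, the largest initiation factor, bridges the small subunit and the cap-binding complex, and 12 of its subunit genes were tested. In induced cells 8 fell and in uninduced cells 11 fell, with medians of -1.23 and -2.02 (7 lower in each after cyclic loess). EIF3L had 5.32, 4.66 and 5.48 in induced Xrn1 arrays and 6.85, 7.80 and 7.20 in induced untreated arrays (-2.13, adjusted p = 3.14e-08). In uninduced cells EIF3L had 4.26, 3.98 and 4.39 with Xrn1 and 8.29, 8.16 and 7.86 without it, a 14.9-fold fall (-3.90, -4.56 to -3.23, adjusted p = 1.00e-26) and the largest of any member in either comparison. EIF3E, a subunit of the octamer core of eIF3, had 4.67, 3.90 and 4.46 with Xrn1 and 5.69, 7.17 and 5.91 without it in induced cells (-1.91), and 3.99, 3.56 and 3.90 with Xrn1 and 6.90, 7.03 and 6.85 without it in uninduced cells (-3.11). EIF3M, which also belongs to the octamer, had 4.28, 3.58 and 4.08 with Xrn1 and 5.62, 7.02 and 6.13 without it in induced cells (-2.28), and 3.82, 3.48 and 3.69 with Xrn1 and 6.64, 6.95 and 6.68 without it in uninduced cells (-3.09). For these 3 genes the Xrn1 and untreated arrays did not overlap in either comparison.

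Of the octamer subunits, EIF3A, EIF3E, EIF3F, EIF3H, EIF3K, EIF3L and EIF3M were tested, and 6 of 7 fell in induced cells and 7 of 7 in uninduced cells, with medians of -1.91 and -3.06. EIF3K, the exception in induced cells, changed by -0.23 there and by -1.45 in uninduced cells, a fall that turned to 0.15 after cyclic loess. Of EIF3B, EIF3G and EIF3I, the module beside the octamer, 1 of 3 fell in induced cells and 2 of 3 in uninduced cells, with medians of -0.71 and -1.70. After cyclic loess the medians of the octamer subunits were -1.20 in induced cells and -1.57 in uninduced cells, and those of the module -0.24 and -0.14. The octamer and the module share arrays, were set apart after the values were seen, and were not tested against each other. By the larger of its changes in induced and uninduced cells, EIF3B had the smallest difference of the class: 4.92, 4.47 and 4.88 with Xrn1 and 5.05, 5.83 and 5.54 without it in induced cells (-0.71, adjusted p = 0.0815), and 4.41, 5.04 and 4.68 with Xrn1 and 5.78, 4.87 and 5.85 without it in uninduced cells (-0.79, adjusted p = 0.0524). Its second uninduced untreated array, at 4.87, lay among the Xrn1 values. EIF3D, a subunit that can itself bind caps, fell by 1.17 and 2.01, and EIF3J, a loosely held subunit, changed by -0.65 in induced cells without passing and fell by 2.03 in uninduced cells. Without the CM2 arrays, EIF3A (-1.12), EIF3D (-0.79), EIF3E (-1.23), EIF3F (-0.91) and EIF3I (-0.65) no longer passed in induced cells. EIF3D (-0.96) and EIF3I (-0.89) also lost their calls there without untreated replicate 2 alone.

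Under the deposited scaling and the common SD, the helicase eIF4A and its helpers fell, 5 of 5 in each comparison with medians of -1.09 and -2.05. After cyclic loess 2 of 5 passed as lower in induced cells and 3 of 5 in uninduced cells. With each gene's own spread 1 of 5 passed as lower in induced cells and 4 of 5 in uninduced cells. EIF4B, which stimulates the helicase, had 4.98, 4.42 and 4.89 in induced Xrn1 arrays and 6.41, 7.13 and 6.81 in induced untreated arrays (-2.02, adjusted p = 1.67e-07). Uninduced cells gave 4.66, 4.80 and 4.99 with Xrn1 and 7.32, 7.27 and 7.20 without it (-2.45, adjusted p = 2.26e-11). EIF4A1, the main helicase, passed narrowly in induced cells, at 5.12, 4.80 and 5.37 with Xrn1 and 5.48, 6.31 and 5.92 without it (-0.81, adjusted p = 0.0455). In uninduced cells its Xrn1 values of 4.41, 4.18 and 4.62 lay clear of the untreated values of 6.40, 6.80 and 6.45 (-2.15, adjusted p = 5.54e-09). EIF4A3, the helicase of the exon junction complex, had 4.78, 4.23 and 4.71 with Xrn1 and 5.09, 6.24 and 5.66 without it in induced cells (-1.09), and 4.16, 4.18 and 4.57 with Xrn1 and 6.35, 6.41 and 6.30 without it in uninduced cells (-2.05). EIF4A2, a paralog of EIF4A1, fell by 1.25 and 1.24, but with untreated arrays as uneven as 3.75, 5.13 and 4.26 in induced cells, where the change without the second array was -0.88 and no longer passed. In induced cells EIF4A1 (-0.61), EIF4A3 (-0.80) and EIF4H (-0.73) also lost their calls without untreated replicate 2.

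The cap-binding class was the most mixed, with members on both sides of 0. EIF4E, the cap-binding protein itself, had 3.13, 2.57 and 3.02 in induced Xrn1 arrays and 4.49, 5.65 and 4.78 in induced untreated arrays, a 4.18-fold fall (-2.06, adjusted p = 8.70e-08). Its values in uninduced cells were 3.04, 3.06 and 3.05 with Xrn1 and 5.46, 4.66 and 5.30 without it, a 4.24-fold fall (-2.09, adjusted p = 1.53e-08). It kept its call and direction in every alternative run. Of its homologs, EIF4E2 changed by -0.74 and -0.37 and EIF4E3 by -0.43 and -0.25, none of which passed. EIF4E1B, an oocyte homolog, rose narrowly in uninduced cells, at 3.85, 4.09 and 4.21 with Xrn1 and 3.40, 2.55 and 3.70 without it (0.83, adjusted p = 0.04). That call was lost in 11 alternatives, among them leaving out uninduced untreated replicate 2 (0.50) or the CM5 arrays (0.48).

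The repressors that bind EIF4E also differed among themselves. EIF4EBP1, whose phosphorylation by mTOR releases EIF4E, was the only member to rise in induced cells, at 5.46, 5.10 and 5.05 with Xrn1 and 3.58, 4.29 and 4.27 without it (1.15, 2.22-fold, adjusted p = 0.00427). Every induced Xrn1 array lay above every induced untreated array. The call was lost with its own spread and without the CM1 arrays (0.79). In uninduced cells it had 4.24, 4.85 and 4.07 with Xrn1 and 4.70, 3.27 and 4.63 without it, with overlapping groups (0.19). EIF4EBP2 had 4.23, 3.88 and 4.37 with Xrn1 and 3.83, 4.61 and 5.31 without it in induced cells and did not pass (-0.43, adjusted p = 0.335). In uninduced cells it fell, at 3.29, 3.10 and 3.49 with Xrn1 and 6.08, 5.79 and 5.52 without it (-2.50, adjusted p = 7.55e-12). EIF4EBP3 changed by 0.69 and 0.21, and neither passed. EIF4ENIF1, the shuttling partner of EIF4E, changed by -0.08 in induced cells and fell by 1.46 in uninduced cells.

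Among the eIF4G scaffolds, EIF4G2 fell most. This homolog lacks the EIF4E-binding region and serves cap-independent initiation. It had 5.46, 4.93 and 5.60 in induced Xrn1 arrays and 6.98, 7.48 and 7.35 in induced untreated arrays (-1.94, adjusted p = 5.67e-07). Uninduced cells gave 4.88, 5.37 and 5.13 with Xrn1 and 7.81, 7.54 and 7.59 without it (-2.52, adjusted p = 5.06e-12). EIF4G1, the main scaffold, had 5.38, 4.91 and 5.37 with Xrn1 and 5.29, 6.16 and 6.07 without it in induced cells (-0.62, adjusted p = 0.137). In uninduced cells it passed as lower, at 4.58, 5.34 and 4.98 with Xrn1 and 6.40, 5.27 and 6.23 without it (-1.0, adjusted p = 0.0116), but the groups overlapped through the second array of each, and the change was 0.40 after cyclic loess. Without uninduced untreated replicate 1 (-0.78) or 3 (-0.87), or without Xrn1 replicate 1 (-0.81), EIF4G1 no longer passed. EIF4G3 changed by -0.68 and -0.40 and passed in neither.

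**Figure D3:**
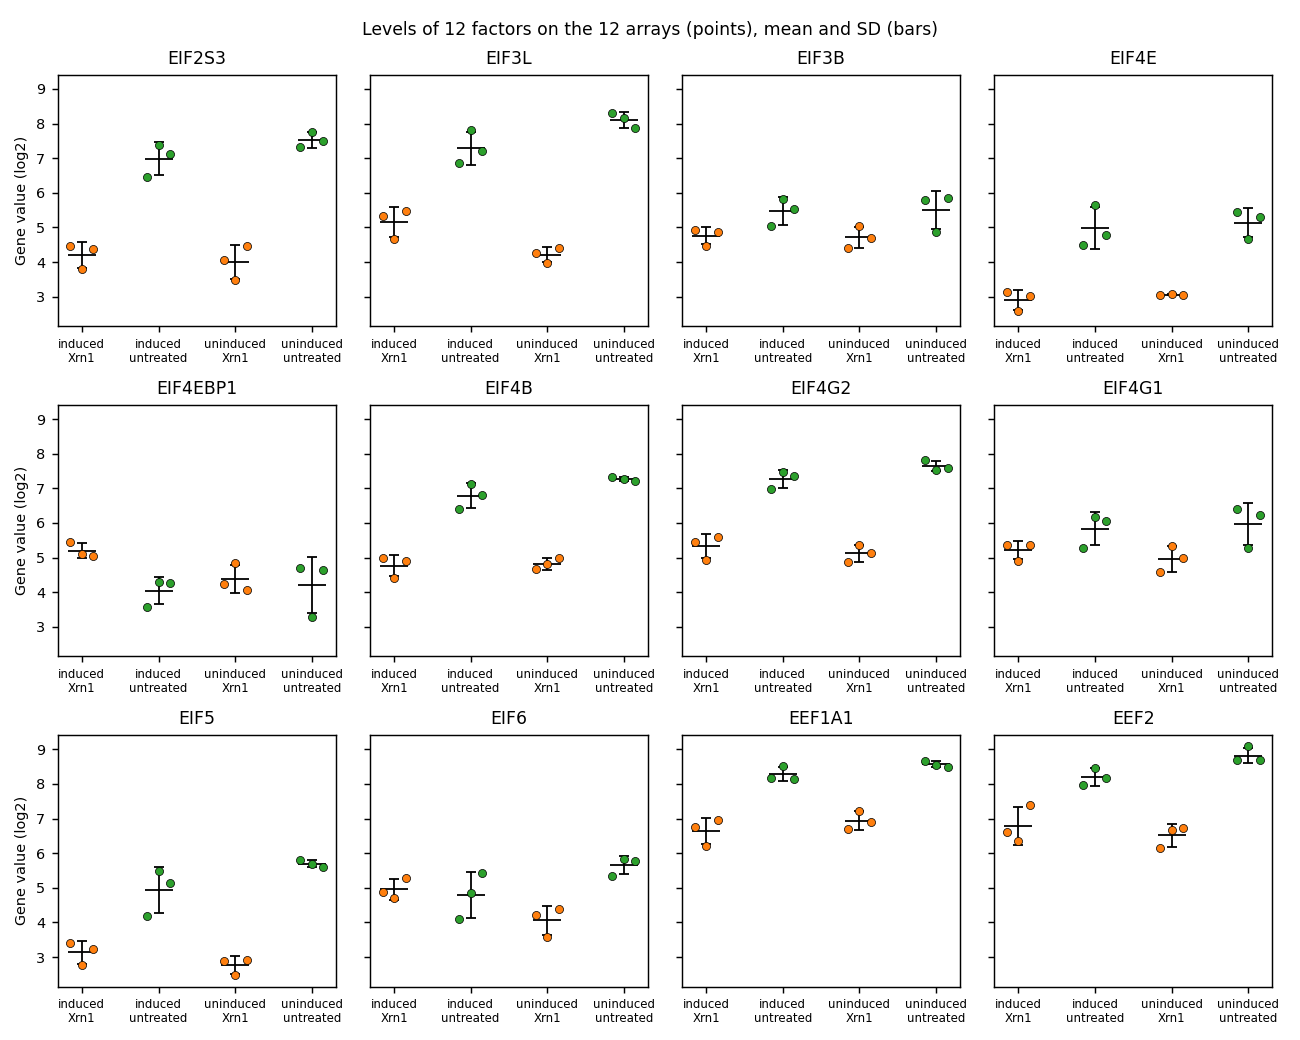
Gene values (log2) of 12 factors on every array, in the order induced Xrn1, induced untreated, uninduced Xrn1 and uninduced untreated. Points are arrays, horizontal bars are means and error bars are SD (n = 3 arrays per group). EIF2S3, EIF3L, EIF4E, EIF4B, EIF4G2, EIF5, EEF1A1 and EEF2 have Xrn1 points below all untreated points of the same cells, whereas EIF6 does so only in uninduced cells and EIF4EBP1 lies higher with Xrn1 in induced cells.

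The EIF5 class and EIF6 fell together in uninduced cells, where 5 of 5 members of the class and EIF6 passed as lower under the deposited scaling. After cyclic loess 3 of the 5 passed, and EIF6 did not (-0.47). EIF5, which triggers GTP hydrolysis on eIF2, had 3.42, 2.78 and 3.22 in induced Xrn1 arrays and 4.19, 5.49 and 5.14 in induced untreated arrays (-1.80, adjusted p = 3.82e-06). Its values in uninduced cells were 2.90, 2.48 and 2.92 with Xrn1 and 5.80, 5.67 and 5.61 without it, a 7.6-fold fall (-2.93, adjusted p = 7.93e-16). The Xrn1 and untreated arrays of EIF5 did not overlap in either comparison. EIF5B, the joining GTPase, had 3.09, 2.61 and 2.69 with Xrn1 and 3.41, 4.41 and 4.29 without it in induced cells (-1.24; -0.97 and not passing without the CM2 arrays). In uninduced cells it had 2.58, 3.15 and 2.84 with Xrn1 and 4.69, 2.86 and 4.42 without it (-1.13), with overlap through the second arrays, and the call there was lost without uninduced untreated replicate 1 (-0.78) or 3 (-0.92). EIF6, which keeps free large subunits from joining, had 4.88, 4.70 and 5.28 with Xrn1 and 4.11, 4.85 and 5.42 without it in induced cells, with overlap (0.16, adjusted p = 0.749). In uninduced cells its Xrn1 values of 4.21, 3.58 and 4.38 lay below the untreated values of 5.35, 5.84 and 5.78 (-1.60, adjusted p = 2.06e-05). EIF5A, the hypusine-bearing factor that helps ribosomes past difficult peptide bonds, had 5.42, 5.11 and 5.60 with Xrn1 and 5.08, 4.50 and 5.40 without it in induced cells (0.39). Uninduced cells gave 4.72, 4.60 and 4.90 with Xrn1 and 5.40, 6.23 and 5.65 without it (-1.02, adjusted p = 0.00986; 0.27 after cyclic loess), and the call was lost without the CM5 arrays (-0.72). Its near-identical copy EIF5AL1, measured by 3 kept probe sets, fell by 1.67 in uninduced cells, and the signal of EIF5A and EIF5AL1 may be shared. EIF5A2, a further paralog, passed in both (-1.04 and -0.80), and the calls were lost without induced untreated replicate 2 (-0.97) and without uninduced untreated replicate 3 (-0.52).

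Of the elongation factors, EEF1A1 and EEF2 fell in both comparisons under the deposited scaling. EEF1A1, which brings aminoacyl-tRNA to the ribosome, had 6.77, 6.21 and 6.95 in induced Xrn1 arrays and 8.18, 8.51 and 8.15 in induced untreated arrays (-1.64, adjusted p = 3.33e-05). Its values in uninduced cells were 6.70, 7.22 and 6.91 with Xrn1 and 8.67, 8.54 and 8.50 without it (-1.63, adjusted p = 1.41e-05), and after cyclic loess the change was -0.34 in induced cells and 0.40 in uninduced cells. Its many pseudogenes may share its signal. EEF2, the translocase, had 6.61, 6.34 and 7.39 with Xrn1 and 7.95, 8.46 and 8.18 without it in induced cells (-1.42, adjusted p = 3.95e-04), a call lost without the CM2 arrays (-1.07). In uninduced cells it had 6.14, 6.68 and 6.73 with Xrn1 and 8.68, 9.08 and 8.69 without it (-2.30, adjusted p = 3.46e-10), and after cyclic loess the changes were -0.13 and -0.28. Among the exchange factors that reload eEF1A, EEF1G had 6.63, 6.36 and 7.02 with Xrn1 and 6.66, 7.22 and 7.00 without it in induced cells (-0.29), and 5.82, 6.24 and 6.11 with Xrn1 and 7.51, 7.28 and 7.46 without it in uninduced cells (-1.36). EEF1D had 5.09, 4.85 and 5.29 with Xrn1 and 5.25, 5.41 and 5.67 without it in induced cells (-0.37), and 4.81, 4.98 and 5.11 with Xrn1 and 5.86, 6.48 and 6.07 without it in uninduced cells (-1.17). Both passed as lower in uninduced cells and not in induced cells, and both changes in uninduced cells were positive after cyclic loess (0.45 and 0.20). For EEF1D in induced cells, 9 of 28 kept probe sets fell and 2 rose, and its change was positive with the median of probe sets. EEF1B2 changed by -0.06 and -0.43, EEF1A2, the form of muscle and neurons, by 0.42 and -0.65, and EEF1E1, a partner of the tRNA synthetases, by -0.32 and -0.04; none passed. As a class, the EEF1 genes had medians of -0.30 and -0.91, which turned to 0.22 and 0.43 after cyclic loess.

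Single probe sets, each of which reads a short stretch of a transcript, showed how evenly each mRNA moved. In induced cells 370 of 1069 kept member probe sets fell and 26 rose, where 12.4% of kept probe sets with 1 symbol fell and 5.84% rose. In uninduced cells 562 fell and 12 rose, where 24.2% fell and 3.92% rose. All kept probe sets of EIF2S3 (17), EIF3L (21) and EIF3E (16) fell in uninduced cells, and 15, 15 and 10 of them fell in induced cells. EIF4B had 41 of 65 lower in induced cells and 56 of 65 in uninduced cells. EEF1A1 had 27 of 40 lower in induced cells and 30 of 40 in uninduced cells. EIF4G1 had 12 of 54 lower in induced cells and 22 of 54 in uninduced cells, and EEF1B2 had 0 of 23 and 2 of 23. By class, the eIF3 subunits had 91 of 219 lower in induced cells and 151 of 219 in uninduced cells, while the EIF4E class had 17 of 101 and 36 of 101. Probe sets of 1 gene share their transcript and are not replicates.

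**Figure D4:**
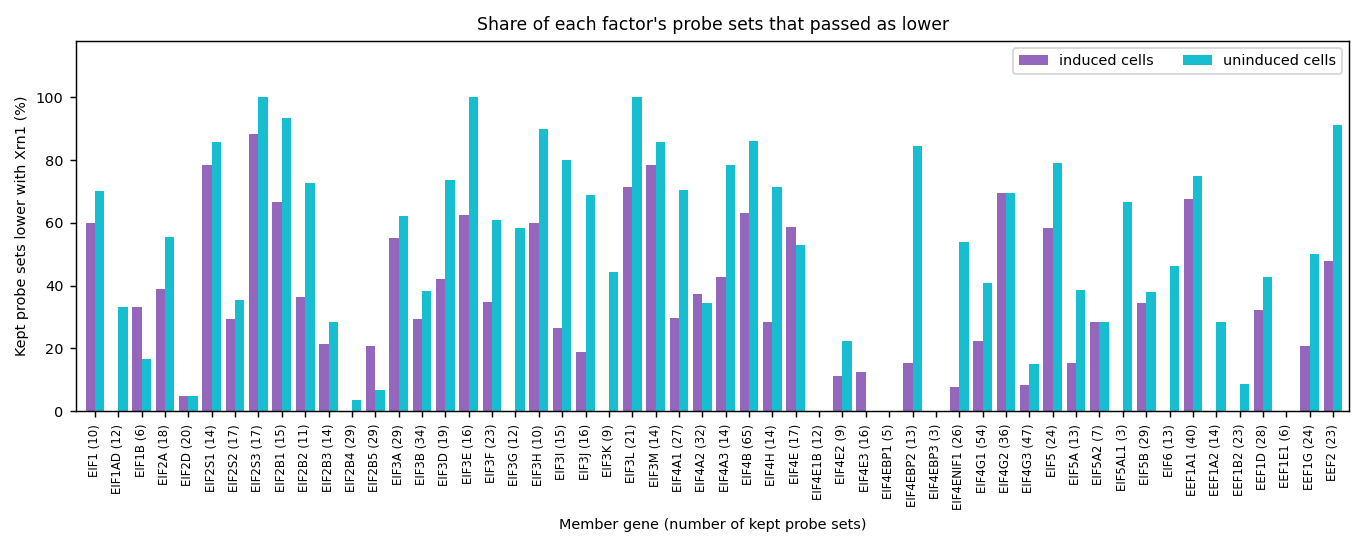
Share of the kept probe sets of each tested member that passed as lower with Xrn1 (percent), in induced cells (purple) and uninduced cells (light blue), with the number of kept probe sets in brackets. EIF2S3, EIF3E and EIF3L reach 100% in uninduced cells, and EIF4E1B, EIF4EBP1 and EIF4EBP3 have 0 in both.

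The changes were set beside the start sequences shown above, a split made after the values were seen. The 11 members with a pyrimidine run at the annotated start had median changes of -1.38 in induced cells, where 9 fell, and -1.92 in uninduced cells, where 10 fell. The 34 tested members without one had medians of -0.73, where 15 fell, and -1.38, where 23 fell and 1 rose. The 9 members outside the promoter table had medians of -0.70 in induced cells, where 4 fell and 1 rose, and -1.70 in uninduced cells, where 7 fell. After cyclic loess the medians were -0.79 in induced and -0.72 in uninduced cells with a run, and -0.49 and -0.47 without one. EIF2S1, EIF5 and EIF4E, whose windows show no run at the start, were among the members that fell in every alternative run. EIF2S3, EIF3M and EIF4B, whose windows show one, were also among them. Whether a run at the start bears on the change was not tested. Across the 54 members, mean level and change had a Pearson correlation of -0.336 in induced cells and -0.484 in uninduced cells. The 9 factors known as TOP mRNAs (EEF1A1, EEF1B2, EEF1D, EEF1G, EEF2, EIF3E, EIF3F, EIF3H and EIF4B) had medians of -1.42 with 6 lower in induced cells and -1.92 with 8 lower in uninduced cells. After cyclic loess these medians were -0.34, with 3 lower and 1 higher, and -0.28, with 3 lower. Of these 9 factors, EEF1B2 and EEF1G had no run at the annotated start, and EEF1D, EIF3E and EIF3H were not in the promoter table. A member without a run in the split above may thus still be a TOP mRNA.

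Of the other cytoplasmic translation genes, more fell than rose with Xrn1. In a list of release, recycling, poly(A)-binding and regulatory genes, 33 of 34 were tested. In induced cells 19 fell and 4 rose (median -1.03), where 17.8% of all genes fell and 21.6% rose. In uninduced cells 24 fell and 0 rose (median -1.32), where 31.8% of all genes fell and 7.24% rose. After cyclic loess 19 were lower and 4 higher in induced cells (median -0.89), and 15 were lower and 2 higher in uninduced cells (median -0.59). The helicase DDX3X changed by -2.95 and -3.58, the release factor GSPT1 by -1.38 and -3.06, the recycling factor ABCE1 by -2.51 and -2.02, and the eIF2 kinase EIF2AK4 by -1.26 and -2.47, and each passed in both. Factors of mitochondrial translation use separate ribosomes but are encoded by cytoplasmic mRNAs, and of 11 tested 5 fell in induced cells and 9 in uninduced cells (medians -0.33 and -0.96), beside the same shares of all genes. After cyclic loess 5 were lower in each comparison (medians -0.54 and -0.65).

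K294A induction on its own gave no call among the members in either kind of RNA. In untreated RNA 0 of 54 passed by limma (0.0296% of all genes were lower and 0.0118% higher), although 16 members had an unadjusted p under 0.05, as had 5201 of 16883 genes. The member median was -0.45, against -0.35 for all genes, and 20 members were lower without overlap (17.4% of all genes). EIF4EBP2 had the largest difference, with 3.83, 4.61 and 5.31 in induced untreated arrays and 6.08, 5.79 and 5.52 in uninduced untreated arrays (-1.21, adjusted p = 0.11). EIF2B2 followed at -1.03 and EIF3J at -1.0. Without induced untreated replicate 3, 10 members passed as lower, and the share of all genes in that fit was not counted. In Xrn1-treated RNA 0 of 54 passed (0.00592% of all genes were lower and 0.0533% higher), with 8 members and 1534 genes at an unadjusted p under 0.05. The median was 0.27, against 0.28 for all genes, and 14 members were higher without overlap (31.3% of all genes). EIF5AL1 differed most (1.31), followed by EIF3G (1.03) and EIF3L (0.95). With each gene tested on its own spread 0 members passed in both kinds of RNA. A fit of only the Xrn1 groups called 6 higher in Xrn1-treated RNA, and the share of all genes there was not counted.

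**Figure D5:**
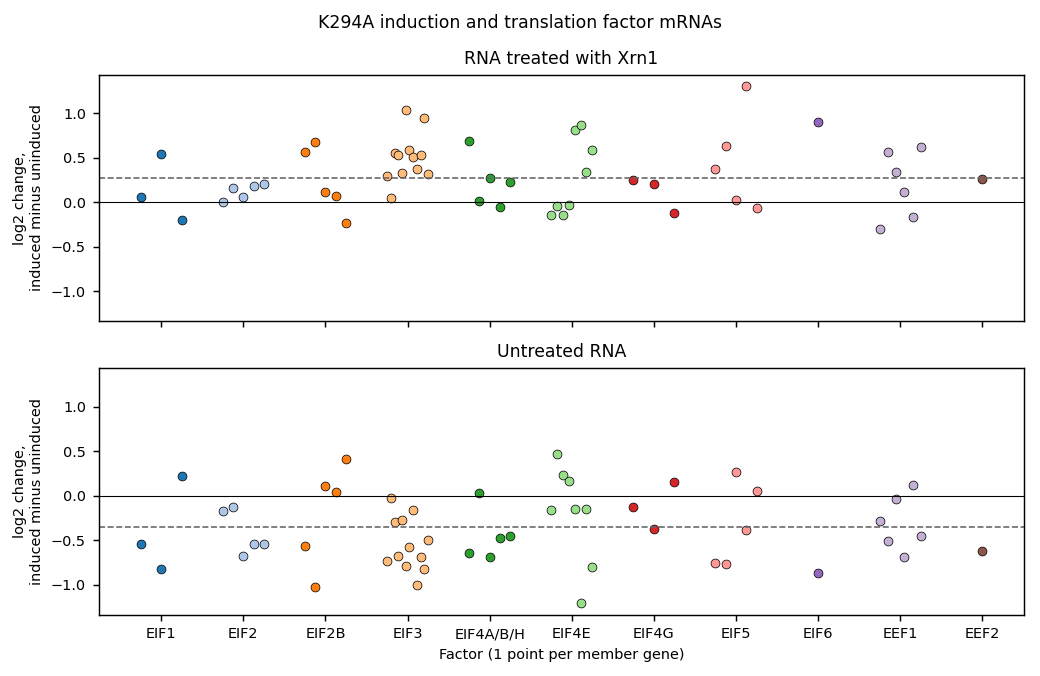
Change with K294A induction (log2, induced minus uninduced) of each tested member by factor, in Xrn1-treated RNA above and untreated RNA below; 1 point is 1 gene and dashed lines are the median of all genes, 0.28 and -0.35. No point passed the test, and the points of most factors lie on both sides of the dashed line or close to it.

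The interaction asked whether the Xrn1 change differed between induced and uninduced cells. It was positive, meaning a less negative or more positive Xrn1 change in induced cells, for 11 of 54 members and negative for none, where 20.6% of all genes passed as higher and 1.23% as lower. The member median was 0.73, against 0.70 for all genes, so the members stood near the background. The largest was EIF4EBP2 at 2.08 (95% confidence interval 1.13 to 3.02, adjusted p = 0.00522), followed by EIF3G at 1.82 and EIF3L at 1.77. EIF4E (0.02), EEF1A1 (-0.01) and EIF4A2 (-0.01) showed almost the same Xrn1 change in both kinds of cells, with intervals of -0.93 to 0.97, -0.96 to 0.94 and -0.96 to 0.94. After centring 6 members passed as higher (3.08% of all genes higher, 7.91% lower). No interaction of a member passed after cyclic loess (0.977% of all genes higher, 1.53% lower) or with each gene's own spread, where 20 members had an unadjusted p under 0.05. Under the main fit 21 members and 7210 of 16883 genes had an unadjusted p under 0.05. The count of members passing was 0 without induced untreated replicate 1 or induced Xrn1 replicate 3. It was 1 without induced Xrn1 replicate 1 or uninduced Xrn1 replicate 2. It was 5 without uninduced untreated replicate 3, and 18 without induced untreated replicate 3. The shares of all genes with these arrays left out were not counted. The interaction shares its arrays with the Xrn1 and induction comparisons above.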

How the data were processed

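Cytoplasmic RNA of U2OS cells was measured on 12 exon arrays, 3 in each of 4 groups taken from the labels. The authors deposited log2 probe set values made with RMA and oligo, both named per the submitters' processing notes; no source used here gives their versions. The deposited values were not normalised again. Symbols came from the platform's probe table, updated through RefSeq names. Probe sets whose average across arrays exceeded 2.04, the median of such averages, were kept, and a gene's value is the mean of its kept probe sets, with at least 3. The title numbers CM1 to CM6 gave replicates 1 to 3 within a group; the title of the Xrn1 sample of CM1 carries replicate number 2.

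All 16883 genes were fitted with limma 3.58.1 in R 4.3.3 (4 group means, 5 contrasts, two-sided, Benjamini-Hochberg over all genes, threshold 0.05), as were 705699 single probe sets. limma estimated an infinite prior, which gives every gene the common SD of 0.418. The fit was tested on simulated data. The number of arrays limits the precision. Array values are given for up to 3 members of each factor class with the largest change in the Xrn1 comparisons, and a member with the smallest; other lists name up to 4 genes with the smallest p. EIF4E1B, EIF4EBP1 and single mixed or overlapping members were added after their values were seen. Members, lists and tests were chosen with earlier results of these data known. Alternatives were the median of probe sets, other filters, centring, cyclic loess, other priors, blocks, only the groups compared, and each array or the CM3 or CM5 arrays left out. Genes with a mean above 4, and leaving out the CM1 or CM2 arrays, were added after seeing the data. The eIF2 trimer, the eIF3 octamer and module, and the split by start run were also chosen after the values were seen. Start windows came from the RefSeq promoter table (GRCh38.p14).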

Additional observations from a re-analysis of the deposited data

Results flagged for a closer look

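For 11 of 54 members (20.4%) the Xrn1 change differed between induced and uninduced cells by the interaction test of limma (Benjamini-Hochberg over all genes). In the same direction 20.6% of all genes differed, so the count of members stood near the background. Of genes with a mean above 4, 27.1% passed as higher in the same fit, against 19.4% of such members. The differences of the Xrn1 changes, induced minus uninduced, were 2.08 for EIF4EBP2, 1.82 for EIF3G, 1.77 for EIF3L, 1.76 for EIF6, 1.70 for EIF2B2 and 1.69 for EIF5AL1. They were 1.41 for EIF5A, 1.38 for EIF4ENIF1, 1.38 for EIF3J, 1.37 for EIF1AD and 1.33 for EIF4A1. None of these 11 differences passed after cyclic loess or with each gene's own spread.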

How the results depend on the processing

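More members were lower than higher with Xrn1 under every alternative run, in induced and in uninduced cells, but the counts depended on the scaling and on single arrays. In uninduced cells the count of members lower with Xrn1 was 24 after cyclic loess and 36 to 44 with arrays left out. The count higher there was 0 with the median of probe sets, 4 after cyclic loess, 0 with a trended prior, 0 with the CM number as a block, 0 among genes with a mean above 4, and 0 to 1 with arrays left out. In induced cells the count lower was 18 with each gene's own spread and 11 to 33 with arrays left out. The count higher there was 4 with the median of probe sets, 5 after cyclic loess, 0 with the own spread and 0 to 2 with arrays left out. For K294A induction, 0 to 10 members were lower in untreated RNA with arrays left out, and 6 were higher in Xrn1-treated RNA with only the groups compared. The interaction count of 11 was 6 with the median of probe sets, 6 with probe sets above the upper quartile, 6 after centring, 0 after cyclic loess, 0 with the own spread, 1 with the CM number as a block and 0 to 18 with arrays left out. Shares of all genes were not counted with arrays left out or with only the groups compared. They are also not given here for the median of probe sets, the upper quartile, the trended prior or the blocks. Those counts of members therefore cannot be set against all genes. The causes were not tested.

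After cyclic loess 14 negative changes became positive in uninduced cells and 4 in induced cells, and 2 positive changes became negative in induced cells. Those that had passed, or passed with the other sign, were in uninduced cells EEF1A1 (0.40), EEF1A2 (0.65), EEF1D (0.20), EEF1G (0.45), EIF3K (0.15), EIF4G1 (0.40) and EIF5A (0.27), and in induced cells EEF1G (0.77). With the median of probe sets EEF1D was 1.60 in induced cells. With the replicate number as a block, 25 members were lower in induced cells and 38 in uninduced cells, and 11 interactions passed. With the CM number as a block the counts lower were 24 in induced cells and 38 in uninduced cells. Shares of all genes are not given here for either block. The labels do not say whether arrays with the same CM number hold the same RNA. Deviations of arrays with the same CM number correlated between -0.708 and 0.125, and those with the same replicate number between -0.639 and 0.120. With 3 arrays a group, small differences may go undetected, and dim probe sets near the median of the array carry little signal over background.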
